A study of Mus musculus with 6 samples.

Results

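Ionotropic and metabotropic glutamate receptors, the small membrane proteins that accompany them and the scaffold proteins that anchor them were examined as a set of 36 genes, each matched by its symbol to a single row of the deposited table of 34745 genes. The set holds 4 AMPA receptor subunits, 6 NMDA receptor subunits, 6 kainate and delta receptor subunits, 6 metabotropic receptors, 10 auxiliary subunits and 4 membrane-associated guanylate kinases (MAGUKs). RNA came from the dorsal striatum of mice aged 1 year on a C57BL/6 background, as 3 libraries from mice heterozygous for Ash1l (Ash1l het) and 3 from wild type (WT) mice. The Ash1l protein methylates histone H3 and is linked to active transcription. What the Ash1l mutation is and where it lies is not stated in the labels, and nothing says outright that every library had its own mouse. The p-values therefore describe the spread between these libraries, which may be technical.

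Glutamate released by cortical and thalamic axons drives the spiny projection neurons that make up most of the dorsal striatum. AMPA receptors carry the fast current, NMDA receptors admit calcium when the membrane is already depolarised, and kainate receptors act on both sides of the synapse. Metabotropic receptors couple glutamate to G proteins. TARPs (the Cacng family), cornichons (Cnih) and Neto proteins bind the ion channels and set their trafficking and gating, and MAGUKs such as PSD-95, the product of Dlg4, hold receptor and TARP at the postsynaptic density.

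The libraries held 12080663 to 18798694 counts, of which the 36 genes took 0.656% to 0.694%. All 36 passed the low-count filter, with 151 (Grm2) to 75544 (Gria2) counts over the 6 libraries. Ash1l itself stood at 281, 198 and 253 CPM (counts scaled to library size) in Ash1l het and at 308, 295 and 293 CPM in WT, with a log2 fold change of -0.29 with an SE of 0.13 (adjusted p = 0.858 by edgeR), so the targeted gene did not pass the test. The labels' protocol describes males, whereas Xist lay between 1956 and 2957 CPM in every library and 4 Y-linked genes together had at most 1 count, which goes against that label in all 6 libraries. Spiny projection neuron markers were abundant, with 9 genes summing to 5128, 5737 and 6625 CPM in Ash1l het and to 6003, 6825 and 6642 CPM in WT. By sign 8 of the 9 were lower in Ash1l het, of which Penk differed by only -0.00026 on the log2 scale. The largest decreases were -0.42 with an SE of 0.18 for Adora2a and -0.33 with an SE of 0.14 for Bcl11b. Their edgeR adjusted p-values were 0.858 and 0.857. Tac1 was higher, at 195, 204 and 226 CPM in Ash1l het and 161, 157 and 147 CPM in WT. Its log2 fold change was 0.42 with an SE of 0.10 (adjusted p = 0.741 by edgeR). Ash1l het replicates 1 and 2 lay apart from the other 4 libraries on the first principal component (27.5% of the variance), at -31.4 and -27.3 against 4.28 to 25.2. On the second component these 2 libraries lay at opposite ends, at 34.4 and -37.1, with the other 4 between -3.39 and 6.28.

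The products of 4 TARP-family genes end in a PDZ-binding tail by which they are known to attach to PSD-95. The last 90 sense bases of the coding sequences of all 6 Cacng members are shown, because Cacng3 and Cacng8 gave the 2 largest fold changes of the set. They were read from the GENCODE M21 transcripts (build GRCm38), 5′ to 3′, with the final 4 codons before the stop in capitals.
Cacng2: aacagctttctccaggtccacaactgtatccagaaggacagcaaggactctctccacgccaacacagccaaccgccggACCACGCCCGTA
Cacng3: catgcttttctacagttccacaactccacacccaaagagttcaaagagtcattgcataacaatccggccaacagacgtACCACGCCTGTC
Cacng4: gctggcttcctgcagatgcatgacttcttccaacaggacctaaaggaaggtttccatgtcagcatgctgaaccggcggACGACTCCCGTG
Cacng8: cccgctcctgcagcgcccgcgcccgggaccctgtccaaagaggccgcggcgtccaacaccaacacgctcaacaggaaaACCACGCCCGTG
Cacng5: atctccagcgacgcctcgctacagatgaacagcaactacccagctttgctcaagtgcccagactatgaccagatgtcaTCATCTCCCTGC
Cacng7: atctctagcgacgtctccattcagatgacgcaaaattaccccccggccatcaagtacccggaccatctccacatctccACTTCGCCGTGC
Cacng2, Cacng3, Cacng4 and Cacng8 encode the same 4 residues there, while Cacng5 and Cacng7 match Cacng2 at 5 and 6 of the 12 capital bases and encode others. GC content differed widely along these ends, from 47.8% in Cacng3 to 70.0% in Cacng8.

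Levels were compared between genes in deposited FPKM, which is scaled to gene length. Averaged over the 6 libraries they spanned Dlg4 at 99.2 FPKM to Grm2 at 0.210 FPKM, with 24 of the 36 genes above 10 FPKM and 8 below 2 FPKM. Dlg4, Cnih2 (91.4 FPKM), Neto1 (56.4 FPKM), Cacng4 (50.4 FPKM) and Cacng7 (46.5 FPKM) were the highest, followed by Gria1 at 44.3 FPKM. The lengths implied by the deposited FPKM were 0.423 to 2.17 times the GENCODE M21 exon length. Both the order of genes and each gene's share of the summed FPKM of its class depend on them. On the M21 lengths, a scale chosen after seeing the data, Gria1 came first at 87.8, Neto1 stood at 23.8 and Dlg4 at 50.9 RPKM, and 8 of the 10 highest genes were shared.

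**Figure D1:**
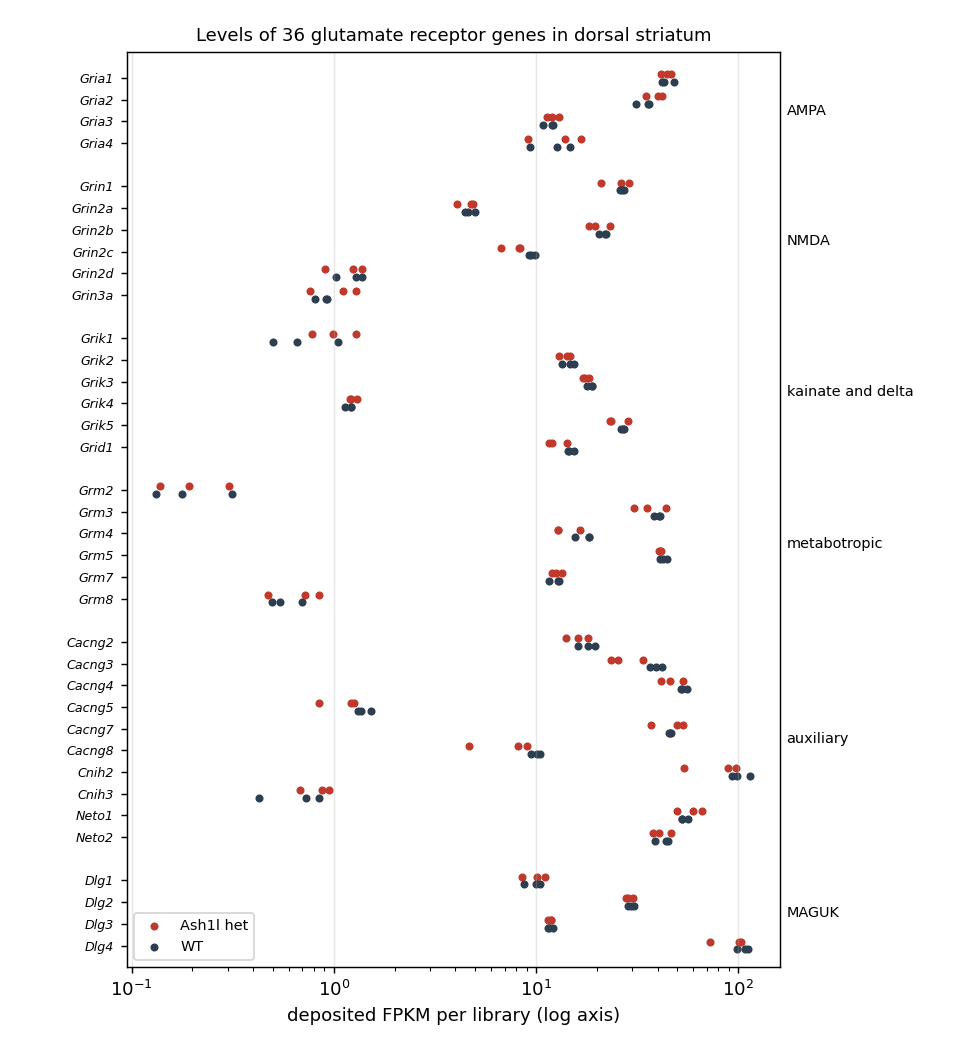
Deposited FPKM of the 36 genes in each library on a log axis, Ash1l het in red above WT in dark blue, with genes grouped by class. Grm2, Grm8, Cnih3, Grik1, Grin3a, Grik4, Grin2d and Cacng5 average under 2 FPKM, and the other genes lie between 4.06 FPKM (Grin2a) and 115 FPKM (Cnih2).

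Between genotypes, none of the 36 genes passed the edgeR quasi-likelihood test (adjusted p from 0.825 to 0.990), beside 2 of 15267 genes (0.0131%) across the table. By unadjusted p, 3 members were under 0.05, namely Cacng3, Grin2c and Grm4, all lower in Ash1l het. Of all genes, 5.78% were under 0.05, with 2.67% lower and 3.1% higher. Neither DESeq2 nor edgeR's exact test called any of the 36. At an unadjusted p under 0.05, DESeq2 had 4 members beside 751 of all 15267 genes. The exact test had 3 members beside 771 genes at that threshold. By sign, 27 of 36 were lower in Ash1l het, beside 48.6% of all genes, with a median log2 fold change of -0.08 against 0.0063 over all tested genes. The median was 0.04 for AMPA subunits, -0.10 for NMDA subunits, -0.11 for kainate and delta subunits, -0.08 for metabotropic receptors, -0.20 for auxiliary subunits and -0.05 for MAGUKs. The 95% interval of the fold change lay within 1.5-fold either way for 24 members, or 66.7%, and for 55.1% of all genes. In bulk tissue, fewer cells of a type and less RNA per cell cannot be told apart.

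**Figure D2:**
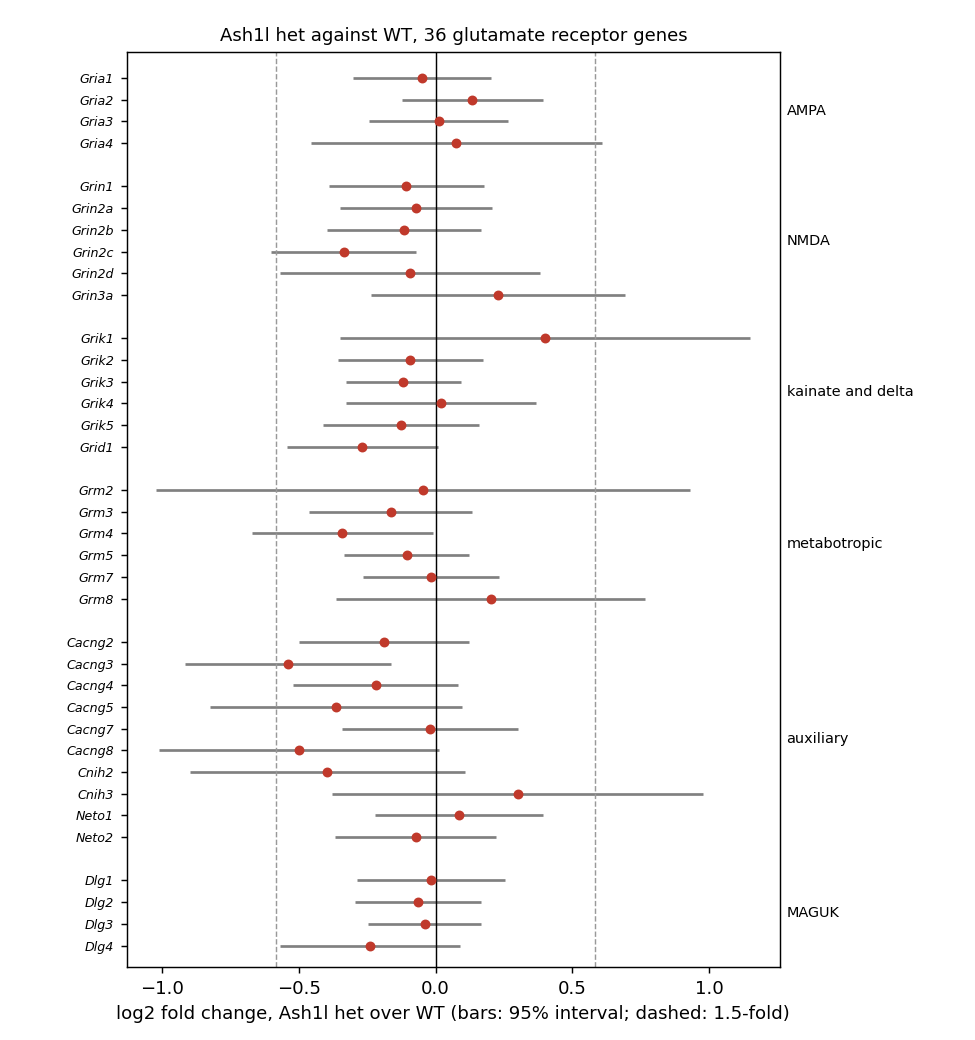
Log2 fold change of Ash1l het over WT for each of the 36 genes (points) with its 95% interval (bars), and dashed lines at 1.5-fold either way. All 6 Cacng points lie below 0, with Cacng3 lowest at -0.54, and the 4 AMPA subunits lie between -0.05 and 0.13.

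The negative median was not found with Ash1l het replicates 1 and 2 both left out, and remained with either one left out. Ash1l het replicate 2 was the lowest of the 6 libraries for 20 of the 36 genes, where 22.7% of all genes were lowest in it, and its median member stood at -0.24 log2 units relative to the WT mean. The median member stood at -0.07 in Ash1l het replicate 1 and at 0.03 in Ash1l het replicate 3. Without replicates 1 and 2, a choice made after seeing the data, 16 of 36 members were lower by sign and the median was 0.03, on a lone Ash1l het library that the fit takes to vary like the WT libraries. Without Ash1l het replicate 1 alone the median was -0.10, with 26 of 36 lower by sign, and without Ash1l het replicate 2 alone it was -0.02, with 23 lower. Without Ash1l het replicate 3 the median was -0.13. In that fit 10 of 36 members had an unadjusted edgeR p under 0.05, beside 1691 of all 15448 tested genes. The smallest edgeR adjusted p of a member was 0.152.

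**Figure D3:**
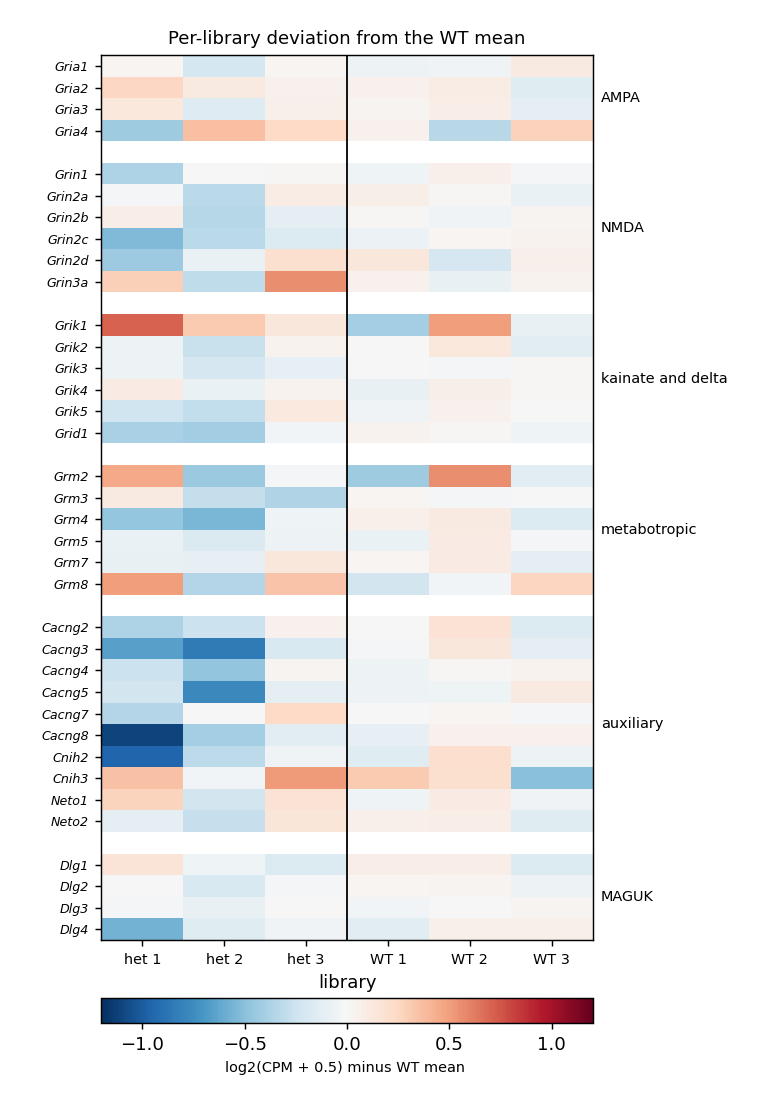
Log2(CPM + 0.5) of each gene in each library minus its WT mean, with the 3 Ash1l het libraries left of the 3 WT libraries and blue for lower values. Among auxiliary genes, Cacng8 reaches -1.11 in Ash1l het replicate 1 and Cacng3 -0.85 in Ash1l het replicate 2.

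Base composition moved with the libraries. The deviation of a gene from its 6-library mean correlated across 15197 genes with the GC content of its longest transcript at a Spearman rho of -0.44 in Ash1l het replicate 1, -0.05 in replicate 2 and 0.17 in replicate 3, and at 0.09, 0.22 and 0.26 in the WT libraries. With the length of that transcript, the deviation correlated at 0.24, -0.27 and 0.02 in Ash1l het replicates 1, 2 and 3. In the WT libraries it correlated with length at 0.06, -0.01 and -0.03. Genes are not independent replicates, so these values are a description. Over the 36 members the values for GC were -0.51, 0.01 and 0.22 in Ash1l het and 0.31, 0.30 and 0.40 in WT. The log2 fold change between genotypes correlated with GC at a Spearman rho of -0.51 over the members and -0.32 over all genes. Median GC was 49.5% both for the members and for all genes. The 6 members with at least 60% GC were Grin2c, Grin2d, Grik5, Grm4, Cacng8 and Cnih2. All 6 lay below the WT mean in Ash1l het replicate 1 and also in replicate 2, and 4 did in replicate 3. Their medians were -0.50, -0.32 and -0.05 log2 units in Ash1l het replicates 1, 2 and 3. In the WT libraries 4, 1 and 3 of them lay below the WT mean. The 5 members under 40% GC had medians of 0.12, -0.22 and 0.06 in Ash1l het replicates 1, 2 and 3, so that both sets were low in replicate 2. With a per-library offset for GC, added after seeing the data, 24 of 36 members were lower by sign and the median was -0.09. The part of base composition in the single values was not tested beyond that offset, and the part of transcript length was not tested.

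**Figure D4:**
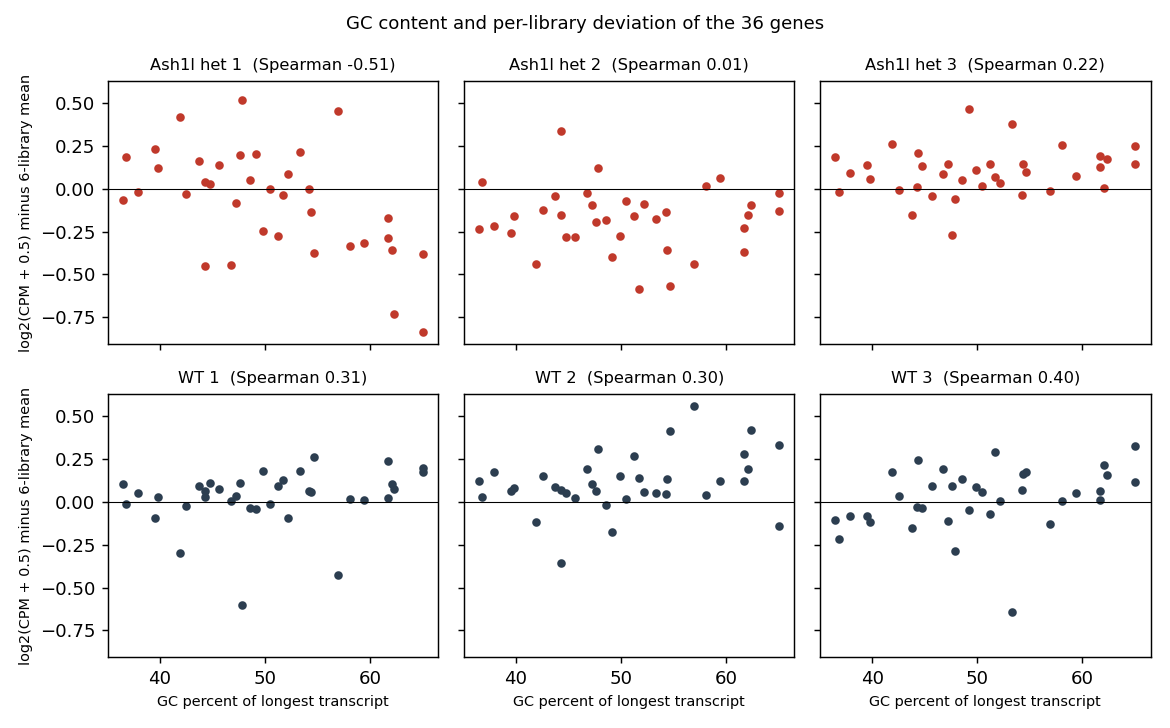
Deviation of each of the 36 genes from its 6-library mean, on log2(CPM + 0.5), against the GC percent of its longest transcript, with Ash1l het libraries in the top row and WT libraries in the bottom row. The points slope down in Ash1l het replicate 1 (Spearman -0.51) and up in the 3 WT libraries (0.31, 0.30 and 0.40).

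Auxiliary subunits held the 2 largest fold changes of the set, Cacng3 and Cacng8, and 8 of 10 were lower by sign. Cacng3 encodes TARP gamma-3 (ENSMUSG00000066189; GRCm38 chromosome 7, 122670492 to 122769393, plus strand) and stood at 107, 93.6 and 148 CPM in Ash1l het and at 166, 185 and 156 CPM in WT. Every Ash1l het library lay below every WT library. The log2 fold change was -0.54 with an SE of 0.17 (adjusted p = 0.825 by edgeR), or 68.8% of WT with a 95% interval of 53.0% to 89.35%. An exact two-sided permutation test gave p = 0.1, and no smaller p is possible with 3 libraries a group. The log2 fold change was -0.48 with the GC offset, -0.41 without Ash1l het replicate 2 and -0.19 without Ash1l het replicates 1 and 2.

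Cacng8 encodes TARP gamma-8 (ENSMUSG00000053395; chromosome 7, 3390683 to 3415648, plus strand), the TARP best known from hippocampal AMPA receptors. It stood at 16.6, 27.4 and 33.3 CPM in Ash1l het and at 33.9, 37.8 and 37.7 CPM in WT. The groups did not overlap, but Ash1l het replicate 3 came within 1 CPM of the lowest WT library. The log2 fold change was -0.50 with an SE of 0.22 (adjusted p = 0.858 by edgeR). It was -0.27 without Ash1l het replicate 1 and -0.29 with the GC offset, and this gene has the highest transcript GC content of the set, at 65.05%. Cacng7, which lies just upstream of Cacng8 on chromosome 7 (3332955 to 3368221, plus strand), was singled out after its values were seen because it differed little: it had 101, 128 and 151 CPM in Ash1l het and 128, 130 and 127 CPM in WT. Its log2 fold change was -0.02, with a 95% interval of -0.34 to 0.30.

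Cacng5, the least abundant TARP-family member, stood at 8.16, 5.41 and 8.80 CPM in Ash1l het and at 9.19, 9.27 and 10.4 CPM in WT. The groups did not overlap, and the log2 fold change was -0.36 with an SE of 0.20 (adjusted p = 0.885 by edgeR). Without Ash1l het replicate 2, the lowest library, it was -0.18. Cnih2, whose cornichon protein slows AMPA receptor deactivation, stood at 66.3, 103 and 124 CPM in Ash1l het and at 116, 148 and 123 CPM in WT. Ash1l het replicate 1 was far below the rest, and without it the log2 fold change was -0.18 in place of -0.40 with an SE of 0.22 (adjusted p = 0.885 by edgeR). Cacng2 (stargazin) and Cacng4 differed by -0.19 (SE 0.14) and by -0.22 (SE 0.13) on the log2 scale, and their groups overlapped. Neto1 and Neto2, auxiliary subunits of kainate receptors, had 0.09 (SE 0.14) and -0.07 (SE 0.13), and Cnih3, at under 5 CPM in every library, had 0.30 (SE 0.30).

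**Figure D5:**
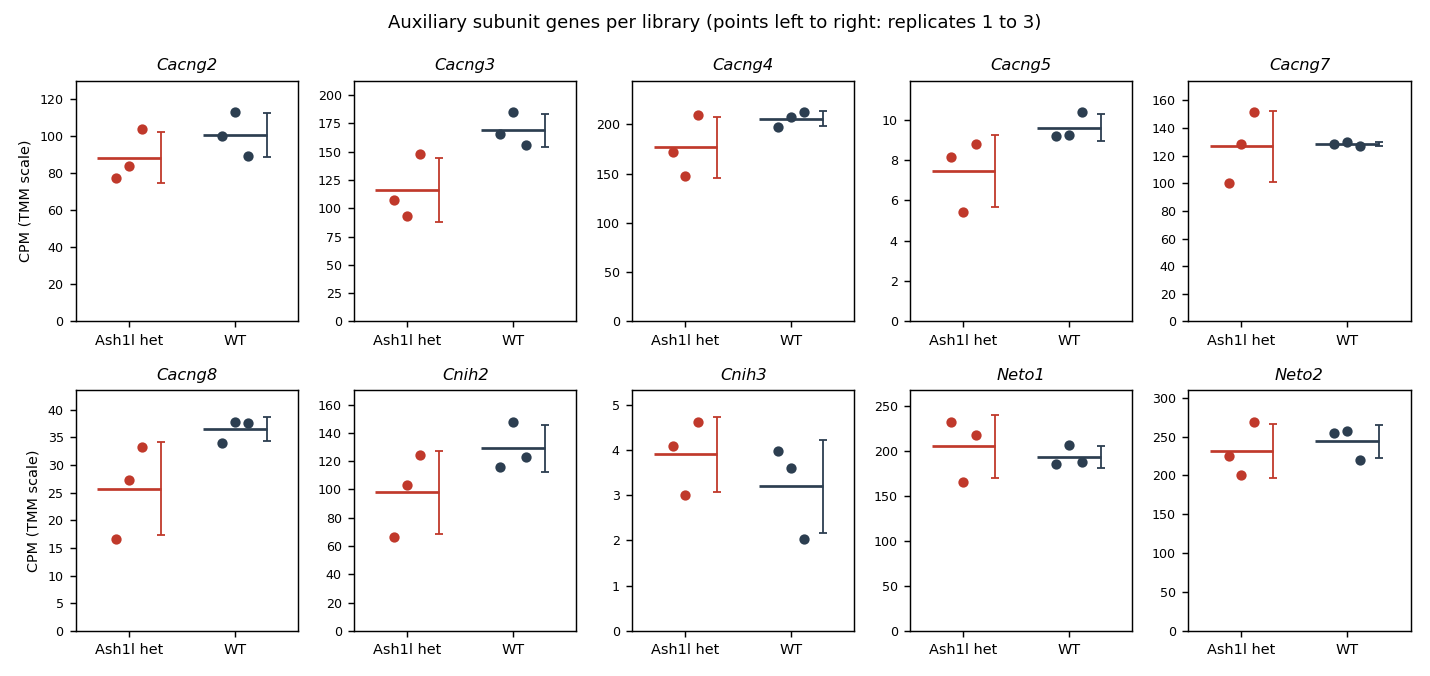
CPM on the TMM scale of the 10 auxiliary subunit genes, with Ash1l het (red) left of WT (dark blue), a point per library, a horizontal line at the group mean and a bar for the SD (n = 3 each). The groups are apart for Cacng3, Cacng5 and Cacng8 and overlap in the other 7 panels.

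Without overlap, 5 of the 36 genes (13.9%) had every Ash1l het library below every WT library, against 5.53% of all tested genes, and 0 had every Ash1l het library above, against 6.18%. Beside the 3 TARP-family genes these were Grin2c and Grik3.

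Among NMDA subunits, 5 of 6 were lower by sign. Grin2c encodes GluN2C (ENSMUSG00000020734; chromosome 11, 115249169 to 115267243, minus strand), an NMDA subunit known in brain mainly from cerebellar granule cells and astrocytes. It stood at 36.4, 42.2 and 47.0 CPM in Ash1l het and at 50.4, 53.7 and 54.5 CPM in WT. The log2 fold change was -0.34 with an SE of 0.12 (adjusted p = 0.857 by edgeR). It was -0.25 without Ash1l het replicate 1 and -0.14 with the GC offset, and the transcript has 62.1% GC. Because astrocytes are a source of Grin2c, astrocyte markers are given beside it: the 5 genes summed to 1244, 1497 and 725 CPM in Ash1l het and to 906, 759 and 821 CPM in WT, with Gfap alone at 412, 733 and 104 CPM in Ash1l het and 154, 62.1 and 83.7 CPM in WT. Without Gfap the other 4 summed to 832, 764 and 622 CPM in Ash1l het and to 753, 697 and 738 CPM in WT, which overlap. By sign 3 of the 5 were higher and 2, Aldh1l1 (-0.08) and Slc1a3 (-0.02 on the log2 scale), were lower in Ash1l het. Their part in the Grin2c result was not tested.

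Grin1, the obligatory NMDA subunit, stood at 304, 394 and 398 CPM in Ash1l het and at 380, 411 and 391 CPM in WT. Ash1l het replicate 1 lay below every WT library and the other 2 Ash1l het libraries lay within the WT range, and the log2 fold change was -0.11 (SE 0.13). Grin3a, which lowers calcium entry when built into the receptor, stood at 20.3, 13.3 and 24.5 CPM in Ash1l het and at 17.1, 15.5 and 17.0 CPM in WT, a log2 fold change of 0.23 (SE 0.21). It was 0.018 without Ash1l het replicate 3 and 0.44 without Ash1l het replicate 2. Grin2b and Grin2a, the main glutamate-binding subunits of forebrain, had -0.12 (SE 0.12) and -0.07 (SE 0.12). The ratio of Grin2a to Grin2b in CPM needs no scaling between libraries. It was 0.169, 0.183 and 0.206 in Ash1l het and 0.188, 0.187 and 0.167 in WT. In summed FPKM of the class, Grin1 took 42.0% ± 5.28 in Ash1l het and 41.3% ± 1.27 in WT, and Grin2b 33.9% ± 5.54 and 33.3% ± 1.03 (SD, n = 3 each).

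AMPA subunits were the class with the fewest lower values by sign, 1 of 4. Gria1, encoding GluA1, stood at 551, 468 and 549 CPM in Ash1l het and at 517, 524 and 581 CPM in WT. The groups overlapped, and the log2 fold change was -0.05 with a 95% interval of -0.30 to 0.20. Gria2, whose edited subunit makes AMPA receptors impermeable to calcium, stood at 910, 823 and 790 CPM in Ash1l het and at 795, 816 and 689 CPM in WT. Its log2 fold change was 0.13 with an SE of 0.11 (adjusted p = 0.902 by edgeR). Of the summed AMPA FPKM, Gria1 took 40.6% ± 2.41 in Ash1l het and 43.1% ± 2.38 in WT, and Gria2 35.97% ± 2.45 and 33.6% ± 3.35 (SD, n = 3 each). Gria4 had the largest SE of the 4, ranging from 55.9 to 96.8 CPM in Ash1l het and from 59.7 to 91.0 CPM in WT, and its log2 fold change was 0.08 (SE 0.23). Gria3 had 0.01 (SE 0.11).

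Kainate and delta subunits were lower by sign for 4 of 6. Grik3, encoding GluK3, stood at 162, 148 and 158 CPM in Ash1l het and at 170, 167 and 171 CPM in WT. Although the groups did not overlap, the log2 fold change was -0.12 with an SE of 0.09 (adjusted p = 0.897 by edgeR), or 92.1% of WT with a 95% interval of 79.6% to 106.5%. Grid1, encoding the delta receptor GluD1 that bridges the synapse through cerebellins and neurexins, stood at 78.5, 76.9 and 101 CPM in Ash1l het and at 106, 104 and 99.0 CPM in WT. Its log2 fold change was -0.27 with an SE of 0.12 (adjusted p = 0.858 by edgeR), and -0.03 without Ash1l het replicates 1 and 2. Grik5, encoding GluK5, stood at 159, 152 and 204 CPM in Ash1l het and at 181, 194 and 186 CPM in WT, so that Ash1l het replicate 3 was the highest of all libraries. The log2 fold change of Grik5 was -0.13 (SE 0.13). Grik2 and Grik4 had -0.09 (SE 0.12) and 0.02 (SE 0.15), and Grik1, under 5 CPM throughout, had 0.40 (SE 0.33).

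Metabotropic receptors were lower by sign for 5 of 6. Grm4, encoding the presynaptic receptor mGlu4 (ENSMUSG00000063239; chromosome 17, 27422387 to 27513341, minus strand), stood at 82.7, 77.9 and 110 CPM in Ash1l het and at 119, 123 and 102 CPM in WT. The value of Ash1l het replicate 3 was inside the WT range and the other 2 were below it. The log2 fold change was -0.34 with an SE of 0.15 (adjusted p = 0.857 by edgeR), and -0.05 without Ash1l het replicates 1 and 2. Grm5, the Gq-coupled receptor of spiny projection neurons, stood at 433, 406 and 440 CPM in Ash1l het and at 435, 490 and 452 CPM in WT, a log2 fold change of -0.11 (SE 0.10). Grm3, a Gi-coupled receptor found on neurons and astrocytes, stood at 133, 102 and 96.3 CPM in Ash1l het and at 126, 121 and 124 CPM in WT, a log2 fold change of -0.16 (SE 0.13). Ash1l het replicate 1 was the highest of all libraries for Grm3 while the other Ash1l het libraries were the lowest. Its log2 fold change was -0.32 without replicate 1 and -0.08 without replicate 3. Grm7 had -0.02 (SE 0.11) and Grm8 0.20 (SE 0.25). Grm2 held 151 counts over the 6 libraries, and its 95% interval of 49.3% to 191% of WT includes a 1.5-fold change in either direction.

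MAGUKs were lower by sign for 4 of 4, with Dlg4 at -0.24 on the log2 scale and the others between -0.07 and -0.02. Dlg4 stood at 492, 659 and 710 CPM in Ash1l het and at 671, 763 and 763 CPM in WT. Ash1l het replicate 1 was far below the others, and the log2 fold change was -0.24 with an SE of 0.15 (adjusted p = 0.889 by edgeR) with all libraries and -0.10 without that library. Dlg2, encoding PSD-93, stood at 419, 367 and 410 CPM in Ash1l het and at 425, 428 and 399 CPM in WT, a log2 fold change of -0.07 (SE 0.10). Dlg3 (SAP102) and Dlg1 (SAP97) had -0.04 and -0.02, and the 95% interval for Dlg3, at -0.25 to 0.17, was the narrowest of these 4. Of the summed MAGUK FPKM, Dlg4 took 57.8%, 67.35% and 67.6% in Ash1l het and 65.25%, 67.9% and 69.3% in WT. These shares depend on the implied lengths, which were 0.513 times the M21 exon length for Dlg4 and 2.17 times for Dlg3.

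Genes around the receptors were read from 3 lists. Of 17 receptor trafficking and clustering genes, 11 were lower by sign and 0 passed the edgeR quasi-likelihood test. The smallest p-values there belonged to Shisa7, at -0.23 (SE 0.12), and Gsg1l, an AMPA receptor auxiliary subunit, at -0.29 (SE 0.15). Of 16 kinase and Ras signalling genes of the synapse, 13 were lower by sign and 0 passed. Kalrn, a guanine nucleotide exchange factor of dendritic spines, had -0.37 with an SE of 0.11 (adjusted p = 0.825 by edgeR). Of 14 tested genes for glutamate supply and clearance, 8 were lower by sign and 0 passed. Slc38a2, a glutamine transporter, stood at 134, 105 and 128 CPM in Ash1l het and at 93.2, 83.8 and 80.8 CPM in WT. Its log2 fold change was 0.51 with an SE of 0.12 (adjusted p = 0.690 by edgeR), and Slc17a8, the vesicular transporter VGLUT3 of cholinergic interneurons, had 0.29 with an SE of 0.11 (adjusted p = 0.857 by edgeR). Medians of the 3 lists were -0.09, -0.18 and -0.03 on the log2 scale. The shares lower by sign were 64.7%, 81.25% and 57.1%, beside 48.6% of all genes. At an unadjusted edgeR p under 0.05 the lists held 0, 4 and 2 genes, beside 5.78% of all genes. Those 4 signalling genes were lower in Ash1l het and the 2 supply and clearance genes were higher.

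Several members are also expressed in cortex, so cortical markers were read in the same libraries. The 7 cortical glutamatergic genes summed to 108, 23.9 and 67.0 CPM in Ash1l het and to 81.0, 53.3 and 66.4 CPM in WT, lowest in Ash1l het replicate 2, and none was at 0. Slc17a7 (VGLUT1) stood at 53.2, 8.60 and 32.8 CPM in Ash1l het and at 37.8, 20.7 and 30.0 CPM in WT. The 5 thalamic markers summed to between 21.4 and 25.8 CPM in Ash1l het and between 21.5 and 28.9 CPM in WT. The 5 blood genes summed to 123, 110 and 56.1 CPM in Ash1l het and to 25.1, 35.4 and 23.0 CPM in WT, without overlap. Sums for the other marker lists overlapped between genotypes: oligodendrocytes 3223 to 4652 against 3269 to 4310 CPM, precursors 68.5 to 84.9 against 68.3 to 85.8 CPM, microglia 202 to 228 against 215 to 239 CPM and endothelial cells 135 to 169 against 125 to 147 CPM, Ash1l het against WT. By sign, 4 of 4 oligodendrocyte, 4 of 4 endothelial and 5 of 5 blood genes were higher in Ash1l het. So were 5 of 7 cortical, 2 of 4 tested thalamic, 1 of 2 precursor and 2 of 4 microglia genes. The part of these cell types in the values of the 36 genes was not tested.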

How the data were processed

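The deposited table holds raw counts per gene and FPKM values for 6 libraries, made by the authors; the tools listed in the submitters' processing notes are HISAT2, StringTie, edgeR, FastQC and CASAVA, on build GRCm38, with no versions or settings. The deposited counts of the per-sample files equal the table in all 6 libraries. Per the labels' protocols the library kit keeps strand, but no source used here says if the counter did, so reads from genes with an antisense partner (Grin1, Grin2b, Grin2d, Grm2, Grm7, Cacng2, Cnih2 and Neto1 among these) cannot be told apart. Of the 36 genes, 23 had the same start and end in GENCODE M21.

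Counts were tested with edgeR 4.0.16 (R 4.3.3; quasi-likelihood, robust, TMM, minimum count 10, genotype as the single term, 3 against 3) over 15267 genes, with calls at p under 0.05 after Benjamini-Hochberg adjustment. CPM is on the TMM scale. The steps were run on simulated counts that lack the GC and length trends of these libraries, so that run does not bear on those trends. Alternatives were DESeq2 1.42.0, the exact test of edgeR, limma 3.58.1 with voom or on log2(FPKM + 0.1) and log2(FPKM + 1) at a mean FPKM of at least 0.5, other scalings and filters, a replicate block and each library left out. Members, lists and naming rule (in each class the highest FPKM, the 2 smallest p-values and groups without overlap; per list the 2 smallest p-values, of which 1 gene is not reported here) were chosen with earlier results of these data known. Depth limits the precision of low genes, and no molecular identifiers are described.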

Additional observations from a re-analysis of the deposited data

How the results depend on the processing

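In none of the 18 other settings was a member called, so the count of 0 held, with the smallest adjusted p of a member at 0.152 without Ash1l het replicate 3 and at most 0.999, the value without WT replicate 2. Calls among all genes were 2 in the quasi-likelihood test, 39 by DESeq2, 39 by the exact test of edgeR, 50 without Ash1l het replicates 1 and 2, and 1 to 13 with single libraries left out. The cause of these differences was not tested.

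Replicate numbers were not found to pair the samples: deviations of same-numbered libraries correlated at 0.049, -0.075 and 0.012. With the replicate block 3 genes and no member were called, and the member median was -0.09.

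Without Ash1l het replicates 1 and 2, which leaves 1 Ash1l het library, 16 members were lower by sign and the median was 0.026. Class medians were then 0.053 for NMDA, 0.043 for kainate and delta and 0.037 for auxiliary genes. Signs changed there for Grin1 (0.016), Gria1 (0.023), Grik5 (0.12), Grin2d (0.20), Cacng2 (0.044), Neto2 (0.14), Grik2 (0.041), Grm7 (0.13), Cacng4 (0.029), Cacng7 (0.24) and Grin2a (0.089). With the GC offset the AMPA median was -0.021 and the MAGUK median -0.11, and signs changed for Grin1 (0.025), Grik5 (0.065), Grin2d (0.14), Grm2 (0.068), Neto1 (-0.012), Gria3 (-0.084) and Cacng7 (0.080). On log2(FPKM + 0.1) and log2(FPKM + 1), Dlg1 (0.020 and 0.019) and Grm7 (0.020 and 0.019) changed sign.

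With single libraries left out, class medians ranged from -0.012 to 0.059 for AMPA, -0.17 to -0.048 for NMDA, -0.15 to -0.032 for kainate and delta, -0.20 to -0.016 for metabotropic, -0.34 to -0.13 for auxiliary and -0.10 to -0.013 for MAGUK genes. Without Ash1l het replicate 3, Grid1 stood at -0.405, Grm4 at -0.51 and Cnih2 at -0.61. Log2 fold changes that changed sign ranged from -0.089 to 0.023 for Gria1, -0.047 to 0.089 for Gria3, -0.078 to 0.28 for Gria4, -0.18 to 0.0076 for Grin1, -0.16 to 0.036 for Grin2a, -0.27 to 0.063 for Grin2d, -0.023 to 0.070 for Grik4, -0.38 to 0.41 for Grm2, -0.10 to 0.028 for Grm7, -0.17 to 0.12 for Cacng7, -0.012 to 0.22 for Neto1, -0.20 to 0.020 for Neto2 and -0.11 to 0.049 for Dlg1. In all, 45 of 646 member values changed sign, and 19 members changed sign in no setting run.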
